A study of Mus musculus with 9 samples.

Results

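The 6 entries mmu-miR-5126, mmu-miR-6538, mmu-miR-6240, mmu-miR-6239, mmu-miR-1983 and mmu-miR-6937 were taken from a table of 1164 mouse miRNA entries counted in small extracellular vesicles (smEVs). They are late additions to the miRNA catalogue that are doubtful as miRNAs. They were chosen by name because their levels shifted together in the mutant smEVs, to lower levels than in WT smEVs. The differences between mutant and WT smEVs are therefore given as a description, with no test. Small RNA was sequenced from smEVs of 3 immortalised kidney medullary (KM) cell lines of the mouse, grown to confluence and then kept without serum for 24 h. Bbs4-/- cells lack a subunit of the BBSome, the complex that moves cargo in and out of cilia, Bbs6-/- cells lack a protein of the chaperonin complex on which BBSome assembly depends, and WT cells served as control. Each genotype was a single cell line with 3 smEV preparations, described in the study as independent, so that genotype and cell line cannot be told apart and the spread between libraries is that between preparations. All 9 libraries started from the same amount of RNA, were amplified in 15 PCR cycles, selected for 18 to 40 nt and pooled at equal molarity.

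A miRNA is cut from a folded hairpin by Drosha and Dicer and loaded into Argonaute, where its seed, the bases near its 5′ end, pairs with target mRNAs. Ribosomal RNA and tRNA are also cut into short fragments, which are common in vesicle RNA, and a fragment that resembles an annotated hairpin can be counted under the name of a miRNA. A count table gives the name only, so that a read of a miRNA and a read of such a fragment cannot be told apart in it.

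The mature sequences of the 6 entries, from RefSeq on GRCm38.p6, are shown because their base composition sets them apart from each other and is the only view of what was counted. Capitals mark the seed, bases 2 to 8, and miR-6937 has a sequence for each arm because its row names none.
miR-5126: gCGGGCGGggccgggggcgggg
miR-6538: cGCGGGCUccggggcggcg
miR-6240: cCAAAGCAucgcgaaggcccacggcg
miR-6239: uAGCGUUGgaucacucggug
miR-1983: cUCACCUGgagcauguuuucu
miR-6937-5p: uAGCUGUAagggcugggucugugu
miR-6937-3p: uCACAGGUucccccuugcacuag

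No 2 of the 6 entries shared a seed. The seeds of miR-5126, miR-6538 and miR-6937-5p were found in no other mouse miRNA of the table used. The seed of miR-6240 also occurred in miR-330, that of miR-6239 in miR-6351, that of miR-1983 in miR-412 and that of miR-6937-3p in miR-12196.

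miR-5126 holds 17 G and 5 C and neither A nor U. Its mature sequence is thus 100% G and C, which was reached by 0.0981% of the 1019 hairpins with a sequence, that is by miR-5126 alone. miR-6538 is 94.7% G and C, a content found in 0.393% of hairpins, and miR-6240 is 69.2% G and C, a content found in 4.71%. The median over hairpins was 52.3%. miR-6239 (55.0%), miR-6937 (55.3%, mean of both arms) and miR-1983 (47.6%) lay near that median.

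Folding of the hairpins with RNAfold gave −0.211 kcal/mol per nt for miR-6240, and only 1.37% of hairpins folded as weakly. The median hairpin folded at −0.407 kcal/mol per nt. miR-5126 lay at the other end with −0.629 kcal/mol per nt, as strong as 3.04% of hairpins. The other 4 entries folded at −0.470 (miR-6538), −0.399 (miR-1983), −0.339 (miR-6239) and −0.328 kcal/mol per nt (miR-6937). Only 1 mature sequence was annotated for 5 of the 6 entries, miR-6937 being the exception. A hairpin with a single annotated mature sequence was found in 35.4% of all hairpins (361 of 1019) and in 171 of the 430 other late-numbered hairpins.

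**Figure D1:**
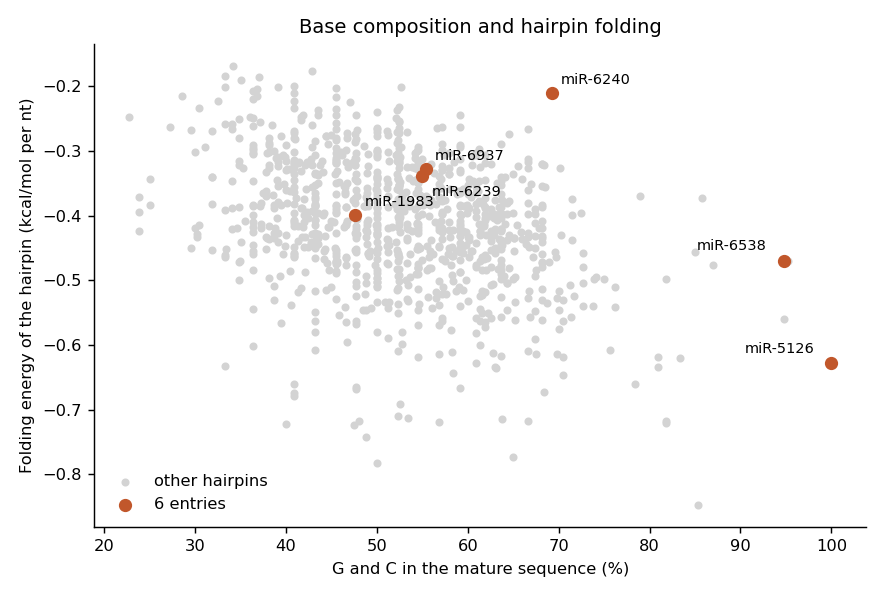
Share of G and C in the mature sequence (x axis, %) against folding energy of the hairpin (y axis, kcal/mol per nt) for 1019 mouse miRNA hairpins, with the 6 entries as large points. miR-5126 and miR-6538 sit at the right edge with 100% and 94.7% G and C, miR-6240 at the top with −0.211 kcal/mol per nt, and the other 3 within the cloud.

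miR-1983 was the only entry whose hairpin overlapped an annotated structural RNA gene. Of 1019 hairpins, 1 overlapped any of the 495 tRNA and rRNA genes of the RefSeq table. The hairpin of miR-1983 (chr13:21896918-21897049, minus strand, GRCm38.p6) contains the whole of n-TItat14, a tRNA gene of 94 nt (chr13:21896938-21897031). It is shown with the bases of the tRNA gene in capitals.
miR-1983 hairpin: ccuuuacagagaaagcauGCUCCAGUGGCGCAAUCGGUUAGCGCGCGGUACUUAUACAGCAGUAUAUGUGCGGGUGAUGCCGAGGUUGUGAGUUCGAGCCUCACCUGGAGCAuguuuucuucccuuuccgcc
The mature sequence of 21 nt runs from base 100 to base 120 of this hairpin. Its first 13 bases lie within the tRNA gene and its last 8 bases lie past the 3′ end of the gene.

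The hairpin of miR-6239 (chr14:117953743-117953847, minus strand, GRCm38) holds a stretch of 16 nt in 2 copies, which start 30 bases apart. The stretch makes up the first bases of the mature sequence shown above, and is in capitals here.
miR-6239 hairpin: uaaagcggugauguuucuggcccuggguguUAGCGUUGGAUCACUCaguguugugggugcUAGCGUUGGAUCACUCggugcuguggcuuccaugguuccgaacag
In the GENCODE vM21 annotation of GRCm38 this hairpin lies in an intron of Gpc6, on the opposite strand. The hairpin of miR-5126 (chr1:84695839-84695915, plus strand) lies opposite an exon of Dner. The hairpins of miR-6538 (chr12:26414901-26415010, minus strand) and miR-6937 (chr12:28679325-28679389, plus strand) lie in introns of Rnf144a and Adi1, on the strand of the gene. The hairpins of miR-6240 (chr5:114851948-114852064, plus strand) and miR-1983 overlapped no other annotated gene.

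The mature sequences were also compared with 3907 transcripts that GENCODE vM21 lists as structural RNAs. None of the 7 member sequences came within 1 edit of such a transcript, and the nearest matches differed by 4 to 8 edits. The median over 1616 mouse mature sequences was 5 edits, 27 were identical to a stretch of a structural transcript and 28 lay within 1 edit. miR-1983 differed from its nearest transcript, an snRNA, by 4 edits, as many as miR-5126 and miR-6538 from theirs. The overlap of miR-1983 with a tRNA gene by position was the only link found of an entry to a structural RNA. The transcripts compared held no tRNA of the nuclear genome, and the complete rRNA precursor was not compared here. Links of a mature sequence to these could therefore not be found.

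The 9 libraries held 64118 to 457163 counts, and each of the 3 WT libraries (64118 to 130905) was shallower than each mutant library (176935 to 457163). Libraries carry the numbers of the deposited columns: Bbs4-/- 1 to 3, Bbs6-/- 2 to 4, and WT 1, 3 and 4. Library 2 of Bbs6-/- stood apart from the other libraries of its line: it held 32 counts of the epithelial miR-200c, against 1069 and 1542 in the others and 1 to 2 in WT, and 1 count of miR-141, against 57 and 62 in the others and 0 in WT. Folds that it moves and shares are given with and without it. The kidney epithelial list was detected with 10 of 11 rows and summed to 37394 to 46125 CPM in WT, 47631 to 51089 CPM in Bbs6-/- and 62289 to 65797 CPM in Bbs4-/- smEVs. Of 13 rows that mark blood, liver, muscle or neural cells 11 had a count, and their sum was 1106 to 1958 CPM in WT, 1976 to 2860 CPM in Bbs6-/- and 1398 to 2536 CPM in Bbs4-/- smEVs, most of it miR-206, with miR-1a-1 and miR-1a-2 at 0 in all libraries. Their median log2 fold change against WT was -0.88 in Bbs4-/- (8 tested, 1 called lower in edgeR, miR-122 of liver) and -0.61 in Bbs6-/- smEVs (7 tested, 0 called in edgeR). Their part in the levels of the 6 entries was not tested.

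The 6 entries together took a much larger share of the WT libraries than of the mutant libraries. They held 14.6%, 13.3% and 12.6% of all counts in WT libraries 1, 3 and 4. In Bbs4-/- libraries 1, 2 and 3 they held 5.14%, 5.51% and 3.08%, and in Bbs6-/- libraries 2, 3 and 4 they held 5.46%, 3.35% and 2.59%. The lowest WT library thus lay above the highest mutant library, and the 2 mutant lines overlapped. The mean share was 13.5% ± 1.01 (SD, n = 3) in WT, 4.58% ± 1.31 (SD, n = 3) in Bbs4-/- and 3.80% ± 1.49 (SD, n = 3) in Bbs6-/- smEVs, so that the WT share was 2.94 and 3.54 times that of the mutants. Without library 2 the Bbs6-/- share was 2.97%. The exact 95% binomial interval of the largest single share, in WT library 1, ran from 14.3% to 14.8%, and such intervals cover counting error only.

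**Figure D2:**
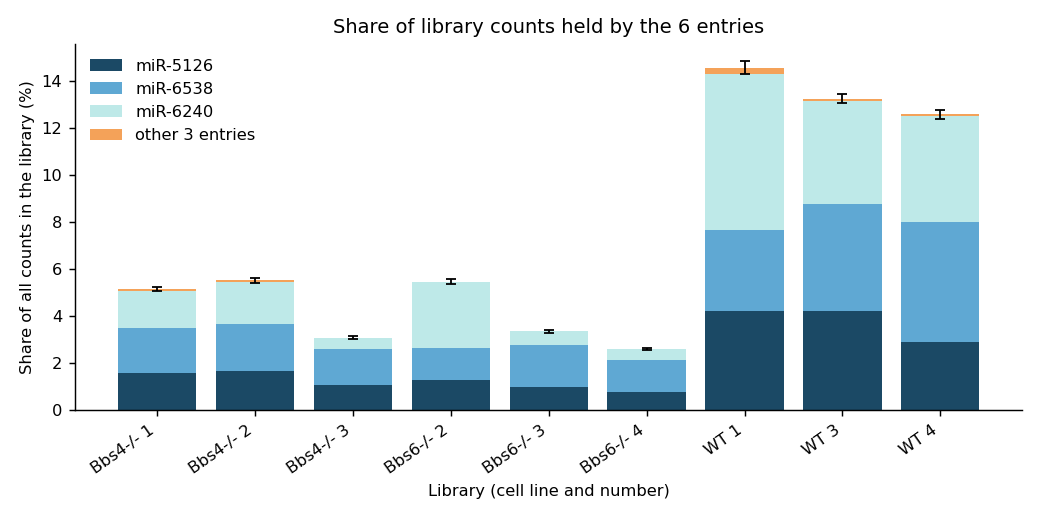
Share of all counts in each library (y axis, %) held by the 6 entries, stacked by entry, with exact 95% binomial intervals of the sum as error bars. The WT libraries reach 12.6% to 14.6% and the 6 mutant libraries 2.59% to 5.51%, and miR-5126, miR-6538 and miR-6240 make up nearly all of each bar.

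miR-5126, miR-6538 and miR-6240 together made up 98.3% to 99.7% of the member counts of a library. miR-6240 ranked between 3 and 8 among all entries in the WT libraries and between 10 and 36 in the mutant libraries. miR-6538 ranked between 4 and 9 in WT and between 10 and 17 in mutant libraries, and miR-5126 between 6 and 11 in WT and between 16 and 26 in mutant libraries. miR-21a, the most abundant single entry, held 11.3%, 12% and 11.5% of the counts in WT libraries 1, 3 and 4 and 17.1% to 22.9% in mutant libraries. The 6 entries together thus held more counts than miR-21a in each WT library and fewer in each mutant library.

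Levels of single entries are given as TMM-scaled CPM, that is counts relative to library size with edgeR's correction for composition. As smEV RNA was measured in bulk, fewer vesicles with an entry and fewer copies per vesicle cannot be told apart. An entry was called where edgeR's quasi-likelihood test gave a change of 2 or more on the log2 scale with an adjusted p below 0.1. Because the same contrast had been used to choose the entries, calls and overlaps against WT are description and support nothing.

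miR-5126, the entry made of G and C only, reached 32822, 40023 and 24553 CPM in WT libraries 1, 3 and 4. It reached 17485, 15650 and 11195 CPM in Bbs4-/- libraries 1, 2 and 3, and 13350, 10813 and 9360 CPM in Bbs6-/- libraries 2, 3 and 4. All mutant libraries lay below all WT libraries. Its log2 fold change against WT was -1.24 (SE 0.23) in Bbs4-/- and -1.51 (SE 0.20) in Bbs6-/- smEVs. With total counts in place of TMM, and with the 6 entries taken out of the totals, it was -2.06 in Bbs6-/-.

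miR-6538 reached 27033, 42856 and 43124 CPM in WT, 21608, 19462 and 16525 CPM in Bbs4-/-, and 14388, 19763 and 16641 CPM in Bbs6-/- libraries, in the same library order. All mutant libraries again lay below all WT libraries, the gap between WT library 1 and Bbs4-/- library 1 being small. The log2 fold change was -1.09 (SE 0.23) in Bbs4-/- and -1.11 (SE 0.23) in Bbs6-/- smEVs, so that its change was about the same in both.

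miR-6240, the weakly folding entry, reached 51671, 41511 and 38158 CPM in WT, 17706, 16909 and 4905 CPM in Bbs4-/-, and 29642, 6174 and 5366 CPM in Bbs6-/- libraries. Bbs6-/- library 2 stood high, at 5.52 times the lowest library of its line, but still below all WT libraries. The log2 fold change was -1.83 (SE 0.36) in Bbs4-/- and -1.72 (SE 0.56) in Bbs6-/- smEVs. Without library 2 of Bbs6-/- the latter was -2.87.

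miR-6239, the entry with the repeated stretch, was far less abundant. It reached 1532, 739 and 401 CPM in WT (126, 83 and 62 counts), 677, 623 and 112 CPM in Bbs4-/- (107, 139 and 48 counts), and 313, 106 and 91.6 CPM in Bbs6-/- libraries (57, 31 and 32 counts). The Bbs4-/- libraries overlapped the WT libraries, and the Bbs6-/- libraries lay below them. The log2 fold change was -1.01 (SE 0.56) in Bbs4-/- and -2.44 (SE 0.62) in Bbs6-/- smEVs. The Bbs6-/- value was -3.11 without Bbs6-/- library 2 and -1.66 without WT library 1, and the Bbs4-/- value was -0.28 without WT library 1.

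miR-1983, the entry that overlaps a tRNA gene, was read 34, 25 and 26 times in WT, 12, 5 and 5 times in Bbs4-/-, and 10, 5 and 3 times in Bbs6-/- libraries. These counts correspond to 413, 223 and 168 CPM in WT, 75.9, 22.4 and 11.6 CPM in Bbs4-/-, and 54.9, 17.1 and 8.59 CPM in Bbs6-/- libraries. All mutant libraries lay below all WT libraries, also in unscaled counts. Its log2 fold changes of -3.08 (SE 0.65) in Bbs4-/- and -3.40 (SE 0.72) in Bbs6-/- smEVs were the largest among the 5 entries with enough counts for a fold. Both moved with single libraries: the Bbs4-/- value was -3.99 without Bbs4-/- library 1 and -2.52 without WT library 1, and the Bbs6-/- value was -4.27 without Bbs6-/- library 2 and -2.83 without WT library 1.

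miR-6937 was near the limit of detection. It was read 2, 2 and 6 times in WT, 0, 0 and 1 times in Bbs4-/-, and 6, 0 and 0 times in Bbs6-/- libraries. The limit of 3 counts that a count of 0 allows corresponds to 19.0 and 13.4 CPM in Bbs4-/- libraries 1 and 2 and to 10.3 and 8.59 CPM in Bbs6-/- libraries 3 and 4, against 17.8 to 38.8 CPM measured in WT. Pooled over a line and divided by all counts, the rate in Bbs4-/- was 0.0356 of that in WT (95% exact interval 0.000819 to 0.250) and that in Bbs6-/- 0.193 of it (0.0575 to 0.585), intervals that cover counting error only. All 6 Bbs6-/- counts came from library 2, so that no fold is drawn from this entry.

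**Figure D3:**
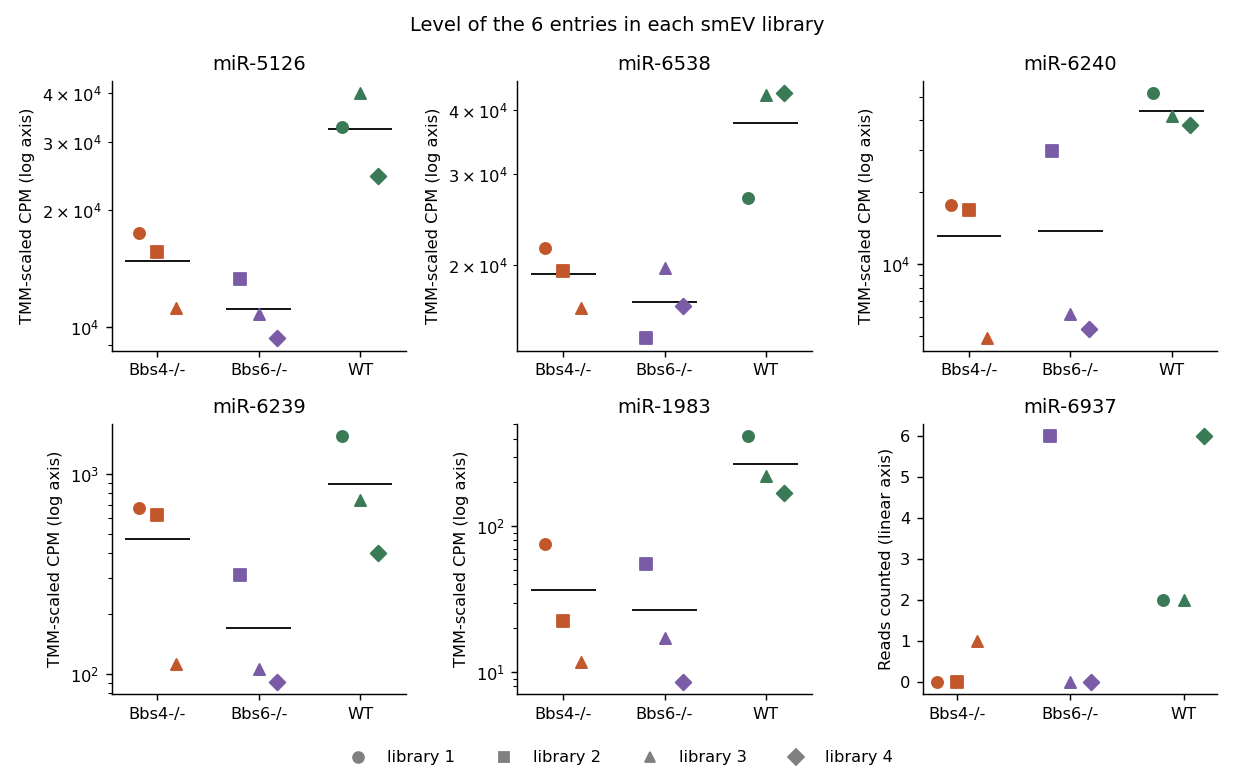
Level of each of the 6 entries in every library, as TMM-scaled CPM on a log axis with the mean of 3 libraries as a line, and for miR-6937 as counts on a linear axis. Marker shapes give library numbers. The mutant libraries lie below WT for miR-5126, miR-6538, miR-6240 and miR-1983, while Bbs4-/- and WT overlap for miR-6239 and Bbs6-/- and WT for miR-6937.

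All Bbs4-/- libraries lay below all WT libraries for 5 of the 6 entries, against 11.0% of the 308 entries tested, but for 1 of the 5, miR-6937, the counts of 0 allow a level within the WT range, which leaves 4. All Bbs6-/- libraries lay below all WT libraries for 5 of the 6, against 11.7% of the 298 tested. Called lower were 1 of the 6 in Bbs4-/- (miR-1983), against 2.27% of all entries tested, and 2 of the 6 in Bbs6-/- (miR-1983 and miR-6239), against 1.34%. miR-6239 was not called without WT library 1 or Bbs6-/- library 3 or 4, and miR-6240 was called as well without Bbs4-/- library 1 in Bbs4-/- and without Bbs6-/- library 2 in Bbs6-/-. The median log2 fold change of the 5 entries other than miR-6937 was -1.24 in Bbs4-/- and -1.72 in Bbs6-/-, with -0.02 and -0.01 over all entries tested. Both contrasts share the WT libraries, and the entries were selected on them, so nothing further is read from these counts.

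The contrast between the mutants was not itself the one on which the entries were chosen, and it was tested across 309 entries. It is not independent of that choice, however. Entries picked because they shift together in the mutants tend to differ little between them, so a small difference is partly set in advance. The WT libraries entered the scaling, the filter on low counts and the estimate of the spread, and leaving out any of them moved the difference between the mutants to 0.28 to 0.35 for miR-5126 and to 0.04 to 0.11 for miR-6538. None of the 6 entries was called in edgeR's quasi-likelihood test, and none in DESeq2, against 3.88% of all entries called in edgeR. The lowest unadjusted p among the 6 was 0.0427, for miR-6239 (edgeR). How many of all entries reached such a p was not counted, so nothing is read from it. For miR-5126 the log2 difference, Bbs4-/- minus Bbs6-/-, was 0.40 (95% interval -0.09 to 0.90, adjusted p = 0.414, edgeR). For miR-6538 it was 0.18 (-0.28 to 0.64, adjusted p = 0.759, edgeR). These intervals leave out a difference as large as that between either line and WT. The entries were chosen on their difference from WT, however, so nothing is read from this comparison.

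For the less abundant entries and for miR-6240 the intervals were wide. The log2 difference was -0.06 for miR-6240 (95% interval -1.26 to 1.14, adjusted p = 0.974, edgeR) and 0.43 for miR-1983 (-1.32 to 2.18, adjusted p = 0.844, edgeR). For miR-6239 it was 1.48 (0.06 to 2.90, adjusted p = 0.280, edgeR). Of the libraries left out in turn, library 2 of Bbs6-/- moved the values of miR-6239 and miR-6240 most. Without it, miR-6239 was higher in Bbs4-/- smEVs by 2.17 (adjusted p = 0.0287, edgeR) and was called. miR-6240 was then higher by 1.13 (adjusted p = 0.0498, edgeR), below the fold required. The value of miR-1983 was 1.28 without that library and -0.60 without Bbs4-/- library 1. Among the fits that left out 1 library, only the one without Bbs6-/- library 2 called any of the 6 entries. How many of all entries were called in these fits was not counted, so nothing is read from that call. With 7 counts in all 6 mutant libraries together miR-6937 could not be compared.

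In unscaled counts, which the greater depth of the mutant libraries raises, the picture differed. The 6 entries together held 9333, 14074 and 16461 counts in WT, 9101, 11755 and 14063 in Bbs4-/- and 10526, 10786 and 10990 in Bbs6-/- libraries. The 3 lines overlapped, and the highest library had 1.81 times the count of the lowest, while the summed count of all other entries varied 8.09-fold. The mean count of the 6 entries in mutant smEVs was 0.876 (Bbs4-/-) and 0.810 (Bbs6-/-) of that in WT, whereas the mean count of all other entries was 3.11 and 3.47 times that in WT. The lower summed share in mutant libraries thus went with a higher count of the other entries, and the summed count of the 6 overlapped between lines. As the 6 were chosen as lower in the mutants, whose libraries were all deeper, this overlap is partly set in advance.

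miR-5126 was the most even of the 177 entries that had a count in every library, with a ratio of 1.98 between the highest and the lowest unscaled count. The median ratio was 8.64 and the ratio of library totals 7.13. miR-6538 (3.19) and miR-6240 (3.27) were the 5th and 6th most even, and miR-6239 (4.48) the 24th. miR-1983 (11.3) did not share this evenness. Its mean count in the mutants was 0.259 and 0.212 of that in WT, against 1.01 and 0.807 for miR-5126, 1.08 and 1.04 for miR-6538, 1.08 and 0.443 for miR-6239, and 0.586 and 0.613 for miR-6240 (Bbs4-/- first). The median entry had 2.34 and 2.26 times as many counts in the mutants as in WT, and a ratio under 1 was found for 18 (Bbs4-/-) and 20 (Bbs6-/-) of the 177 entries. Entries chosen as lower in the mutants, whose libraries were all deeper, tend to have even unscaled counts. These ranks and ratios are therefore partly set in advance by the choice and are given as a description.

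**Figure D4:**
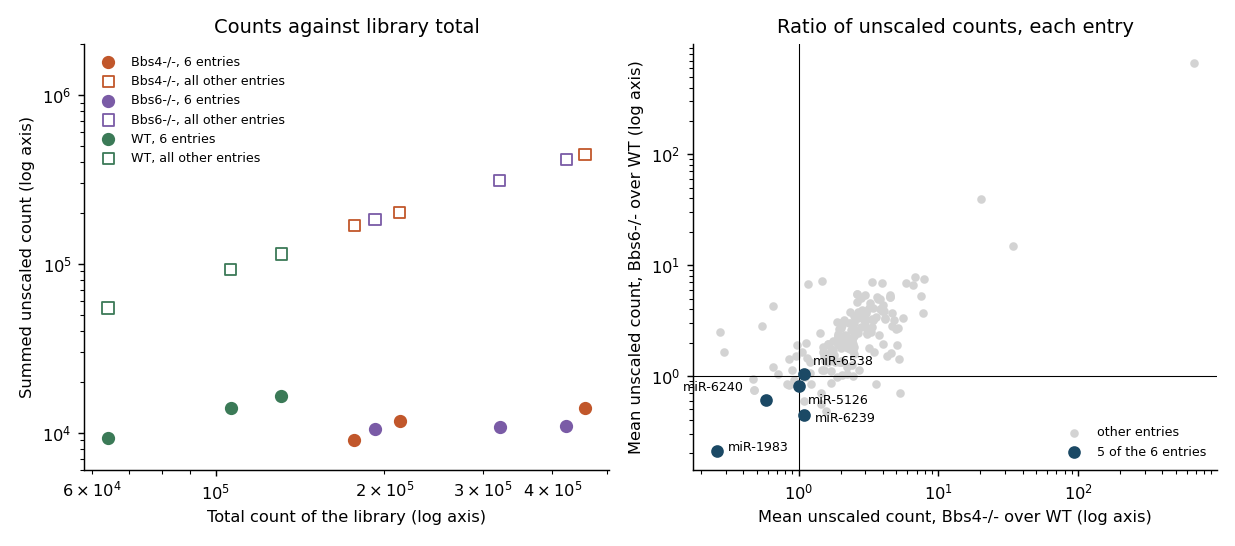
Left, summed unscaled count (y, log axis) of the 6 entries (filled) and of all other entries (open) against the library total (x, log axis), 1 point per library: the filled points stay between 9101 and 16461. Right, ratio of mean unscaled counts to WT in Bbs4-/- (x, log axis) and Bbs6-/- smEVs (y, log axis) for 177 entries, with the 5 of the 6 entries that had a count in every library as large points near or below 1.

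The scaled levels of 3 of the 6 entries followed library depth within each line as well. From the shallowest to the deepest library, the CPM of miR-6240, miR-6239 and miR-1983 fell at each step in WT, Bbs4-/- and Bbs6-/- smEVs alike. Only 4 of the 309 entries tested (1.29%) did so in all 3 lines, the other being miR-3968, named here after its values were seen. miR-5126 fell at each step in both mutant lines but not in WT, and miR-6538 in Bbs4-/- alone. In deviations from the line means, the correlation of log2 CPM with log2 library total was -0.79 for miR-5126 and 0.26 for miR-6538. A value as low was found in 4.53% and 65.0% of entries. Since all WT libraries were shallower than all mutant libraries, depth and genotype cannot be told apart for any entry compared with WT.

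The libraries closest in depth were WT 4 (130905 counts), Bbs4-/- 1 (176935) and Bbs6-/- 2 (192654). Between them miR-6538 stood at 43124, 21608 and 14388 CPM and miR-5126 at 24553, 17485 and 13350 CPM, both highest in WT. miR-6240 stood at 38158, 17706 and 29642 CPM and miR-1983 at 168, 75.9 and 54.9 CPM, also highest in WT. miR-6239, at 401, 677 and 313 CPM, was not highest in WT. These are single libraries with no replicate check, and Bbs6-/- library 2 is the one that stood apart. The next Bbs6-/- library in depth, library 3 (321727 counts), stood at 19763 CPM for miR-6538, 10813 for miR-5126, 6174 for miR-6240, 17.1 for miR-1983 and 106 for miR-6239.

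Ratios between the entries within a library were not constant. The counts of miR-6538 per count of miR-5126, the pair rich in G and C, ranged from 0.824 in WT library 1 to 1.83 in Bbs6-/- library 3. The counts of miR-6240 per count of miR-5126 ranged from 0.438 in Bbs4-/- library 3 to 2.22 in Bbs6-/- library 2, and were 0.571 and 0.573 in the other Bbs6-/- libraries. In WT this ratio was 1.04 to 1.57. In the deviations of log2 CPM from the line means over the 9 libraries, which share depth, miR-5126 moved with miR-6239 (r = 0.82), miR-1983 (r = 0.75) and miR-6240 (r = 0.74). miR-6538 did not go with them, with r = 0.06 to miR-5126 and -0.17 to -0.25 to the other 3.

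By the correlation of log2 CPM over the 9 libraries, which share depth and line differences, the entry most like miR-6240 was miR-6238 (r = 0.94), which was also most like miR-6239 (r = 0.91). miR-6238 is itself late-numbered, with 383 counts in all. miR-5126 was most like miR-532 (r = 0.91), miR-6538 most like miR-10b (r = 0.90), and miR-1983 most like miR-451a, a miRNA of red blood cells (r = 0.92, 31 counts in all). Next in order came miR-451a and miR-222 for miR-5126 and for miR-6239, miR-351 and miR-324 for miR-6538, miR-451a and miR-2137 for miR-6240, and miR-2137 and miR-532 for miR-1983, with r from 0.83 to 0.92. The red cell miR-451a was read 4, 6 and 7 times in WT, 7, 3 and 1 times in Bbs4-/- and 3, 0 and 0 times in Bbs6-/- libraries. Other red cell rows of the list differed from it. miR-486a was read 7, 10 and 6 times in WT, 10, 11 and 25 times in Bbs4-/- and 5, 10 and 16 times in Bbs6-/- libraries. miR-144 was read 3, 0 and 0 times in WT, 0, 3 and 0 times in Bbs4-/- and 5, 0 and 0 times in Bbs6-/- libraries. The part of red cell miRNAs in these levels was not tested.

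The other late-numbered entries, those numbered 5000 or higher, held far fewer counts. Of 468 such entries 100 had a count, and together they held 7491 counts against 107089 for the 6 entries. Their share was 0.294% to 0.881% in WT, 0.200% to 0.479% in Bbs4-/- and 0.288% to 0.388% in Bbs6-/- libraries, and these ranges overlapped. None of the 26 tested in Bbs4-/- or the 27 tested in Bbs6-/- was called in edgeR with TMM, and 1 and 0 of them had all mutant libraries below all WT libraries. Their median log2 fold change was 0.41 in Bbs4-/- and -0.15 in Bbs6-/- smEVs. Single entries among them had values like those of the 6, named here after their values were seen. miR-6238 averaged 456 CPM in WT, 198 CPM in Bbs4-/- and 184 CPM in Bbs6-/- smEVs, with unscaled counts 0.846 and 0.832 of WT, and miR-5119 averaged 772, 333 and 222 CPM, with unscaled counts 0.826 and 0.855 of WT.

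Entries that fill a large share of the counts in some libraries and less in others change the scale on which all others are read. When the 6 entries were left out of the library totals, the log2 level of every other entry rose by 0.23, 0.20 and 0.19 in WT libraries 1, 3 and 4, by 0.08, 0.08 and 0.05 in Bbs4-/- libraries and by 0.08, 0.05 and 0.04 in Bbs6-/- libraries. No mutant library reached the WT range. Relative to WT, all other entries were therefore 0.14 lower in Bbs4-/- and 0.15 lower in Bbs6-/- smEVs on the log2 scale, that is 0.907 and 0.900 times their former level.

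TMM and the DESeq2 size factors, which are built to resist such entries, moved less or less evenly. With TMM over all 9 libraries the shift relative to WT was -0.13 in Bbs4-/- and -0.07 in Bbs6-/-, where library 2 rose as much as WT. With DESeq2 size factors it was -0.02 and -0.04. With TMM over the 6 libraries of each comparison, as used for the calls, the median log2 fold change of the other entries changed by 0.04 in Bbs4-/- and by -0.11 in Bbs6-/-, so the direction in Bbs4-/- depended on which libraries were scaled together.

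**Figure D5:**
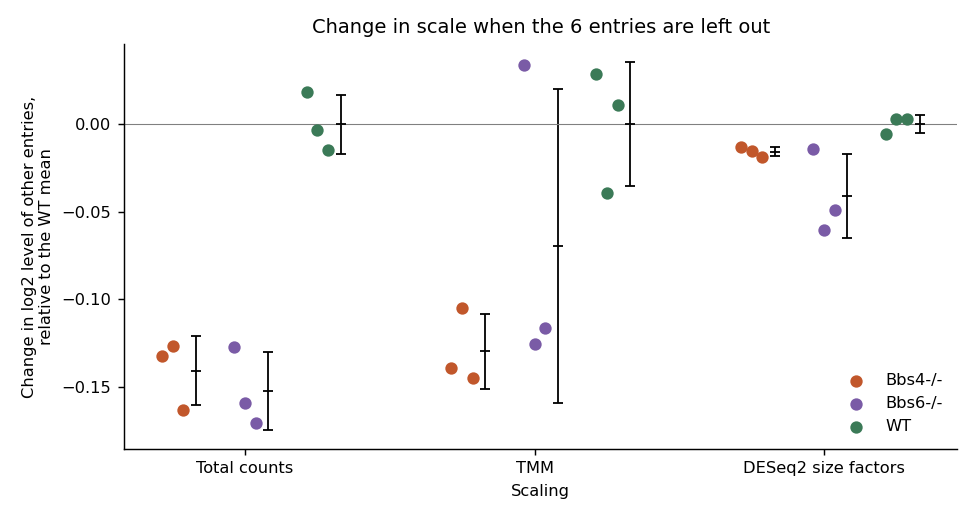
Change in the log2 level of all other entries when the 6 entries are left out of the scaling (y axis), relative to the WT mean, for 3 kinds of scaling (x axis), with 1 point per library and bars of mean ± SD (n = 3). With total counts the mutant libraries lie about 0.14 and 0.15 below WT on average, with DESeq2 size factors 0.02 and 0.04.

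Few calls depended on the 6 entries under TMM. Of the other entries, 18 were called in Bbs4-/- against WT with and without the 6 entries in the scaling, and all 18 were shared. In Bbs6-/- 10 were called with them and 11 without, 10 of them shared. The entry gained was miR-378a, whose log2 fold change went from -1.94 (SE 0.43) to -2.07 (SE 0.44), across the fold of 2.

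With total counts, calls of the other entries rose from 20 to 23 in Bbs4-/- and from 14 to 18 in Bbs6-/- when the 6 entries were left out, and no call was lost. All gained entries were lower in the mutants. They were miR-450b, miR-465c and miR-542 in Bbs4-/-, and miR-10b, miR-2137, miR-466i and miR-5119 in Bbs6-/-. Their log2 fold changes moved a little, for example from -1.90 to -2.06 for miR-10b and from -1.87 to -2.03 for miR-2137. In the contrast between the mutants the calls under TMM were the same 12 with and without the 6 entries, and with total counts miR-671 was gained (from 2.00 to 2.01, the former just under the fold required).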

How the data were processed

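The authors trimmed adapters with cutadapt 1.9, collapsed reads by their unique molecular identifiers, counted reads per miRNA with miRDeep2, and kept the largest count where a miRNA had several entries. The deposited values are these counts, not normalized. Through the identifiers, PCR copies of a molecule were counted as 1. Bbs6-/- and WT columns carry other numbers than the labels and were assigned to their line only, and 0 columns were left unused.

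The 6 entries and the comparison lists were chosen with earlier results of these data known. All 6 are described, with the 3 entries most like each (not for miR-6937, with 17 counts), entries whose call changed with the scaling, and miR-21a. Tests were run with edgeR 4.0.16 in R 4.3.3 (TMM, quasi-likelihood test, Benjamini-Hochberg adjustment) over entries with at least 6 counts in the 6 libraries of a contrast with WT, or 9 counts in all 9 libraries for the contrast between mutants. SEs are the log2 fold change divided by the root of F. The test was tried on simulated counts. Alternatives were DESeq2 1.42.0, its size factors, total counts, both scalings without the 6 entries, other filters, other libraries in the fit, robust spread, a replicate block and each library left out. Most alike means the highest Pearson r of log2 CPM (prior count 2). Hairpins were folded with RNAfold 2.7.2, and 988 of 1164 entries matched a hairpin sequence by name. GRCm38 is the build in the submitters' processing notes. A count of 0 allows 3 counts, which is 6.99 CPM in the deepest library and 36.5 CPM in the shallowest, so absence is bounded least tightly in WT.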

Additional observations from a re-analysis of the deposited data

How the results depend on the processing

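For the 5 entries with a fold, all 160 log2 fold changes against WT recomputed under the alternatives stayed below 0. The entries were chosen as lower in the mutants, so this sign is partly set in advance and nothing is read from it. With total counts, with or without the 6 in the totals, 3 of the 6 entries were called lower in Bbs4-/- (1 with TMM). They were miR-1983, miR-6240 and miR-6937, the last with 1 read in Bbs4-/-. Other entries called there were 20 with the 6 in the totals and 23 without, against 18 under TMM. In Bbs6-/-, 4 of the 6 were called (2 with TMM) when the 6 were left out, and calls of other entries rose from 10 under TMM to 18. Leaving out 1 library gave 1 to 2 of the 6 called in Bbs4-/-, 1 to 3 in Bbs6-/- and 0 to 1 between the mutants, the 1 being miR-6239 without library 2 of Bbs6-/-. Other entries called were then 14 to 22 in Bbs4-/- and 7 to 15 in Bbs6-/-. Between the mutants, other entries called were counted neither in these fits nor with the replicate block. The difference between the mutants changed sign for miR-6240 with total counts (0.0033), with total counts without the 6 entries (0.007), and without Bbs4-/- library 3 (0.26) or Bbs6-/- library 2 (1.13), and for miR-1983 without Bbs4-/- library 1 (-0.60) or Bbs6-/- library 4 (-0.04). Over all libraries left out in turn it ran from -0.58 to 1.13 for miR-6240 and from -0.60 to 1.28 for miR-1983. The summed share in WT was 15.2% with miR-21a taken out of the total. The shift of scale was -0.0157 in Bbs4-/- and -0.0413 in Bbs6-/- with DESeq2 size factors, and -0.0694 in Bbs6-/- with TMM. The cause of these changes was not tested. The replicate block used the numbers that the columns carry. The correlation of deviations in same-numbered pairs ran from -0.13 to 0.37, with 3 of 6 pairs over 0.1. Whether the numbers pair the libraries is not settled by these values. With the block, 2 of the 6 entries were called in Bbs4-/-, 3 in Bbs6-/- and 0 between the mutants, 17 other entries were called in Bbs6-/- and 16 in Bbs4-/- (18 without it), and miR-1983 changed sign between the mutants (-0.31). Depth leaves miR-6937 with 17 counts and miR-1983 with 125 counts over all libraries.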
